A study of Homo sapiens with 14 samples.

Results

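The clustered protocadherins are cell-surface adhesion proteins of the cadherin superfamily, encoded by 3 neighbouring gene clusters (alpha, beta and gamma) on the long arm of human chromosome 5. Members were taken as every gene symbol made of PCDHA, PCDHB, PCDHGA, PCDHGB, PCDHGC or PCDHAC followed by a number. This gave 54 of the 54628 gene symbols in the count tables, with 16 alpha, 16 beta and 22 gamma members. In all 14 libraries 52 of the 54 members were listed at 0, and only PCDHB15 and PCDHGA1 held any counts. The tables also hold 3 cluster-wide entries, PCDHA@, PCDHB@ and PCDHG@, which are not members and whose intervals span the clusters. A 0 for a member is therefore reported as a listing and not as a lack of transcript.

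The study sequenced RNA from IMR90 cells, primary human lung fibroblasts that are an established strain, in 14 libraries of 2 per group. Untreated wild-type cells (WT) and untreated cells with an HMGB2 knockdown (siHMGB2) formed a pair of groups. The remaining cells received inflachromene (ICM), a small molecule that acts on HMGB proteins and is given here to induce senescence, at 10 µM for up to 6 days. They were wild type (ICM 1-2 and ICM 3-4, the 4 ICM replicates in the labels) or carried a knockdown labelled siSRRM2, siBANF1 or siCTCF. The labels of ICM 3-4 and siCTCF are written in another form than those of the other 10 libraries, with the cell line entry counting upwards from IMR90, so they were treated as a second set. WT exists only in the first set, and in ICM 3-4 against WT the treatment and the set cannot be told apart. The growth protocol names 2 isolates of the cells without assigning libraries to them. The labels do not say that replicates came from separate cultures, so the p-values measure only the spread between these libraries.

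Each alpha and gamma variable exon has its own promoter and is spliced to constant exons that its cluster shares, whereas most beta genes stand in a single exon with no shared constant part. Promoter choice in neurons is known to involve binding of CTCF, a zinc-finger protein that anchors chromatin loops together with cohesin, and DNA methylation. The variable choice gives single neurons different combinations of isoforms, which bind in a homophilic way and mediate self-avoidance. Members with the C-type names (PCDHAC1, PCDHAC2, PCDHGC3, PCDHGC4 and PCDHGC5) are regulated differently from the alternate isoforms. Counts of alpha and gamma genes can be shared between members through the constant exons, so statements on single genes rest on the beta cluster.

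The promoters of the beta genes show what they have in common in sequence. RefSeq (GRCh38.p14) promoters were matched for 14 beta, 13 alpha and 20 gamma members, and the 250 bases before each start were searched on both strands. A run of 9 letters, GGTGGCGCT, was the most widely shared one of that length and was found by comparing these promoters, so its share in them is a description. It was present in 12 of 14 beta promoters (85.7%), in 0 of 13 alpha and 0 of 20 gamma promoters, and in 117 of all 27305 promoters (0.428%). It lay 7 to 75 bases before the start (median 57.5) and was absent from the windows of PCDHB1 and PCDHB8. The shorter letters CGCT, which the run contains, occurred in 92.3% of alpha, 92.9% of beta and 100% of gamma promoters and in 64.3% of all promoters. The core of the CTCF motif, searched as CC, AG after 3 free bases and GGC after 2 more, occurred in 1 of 14 beta promoters (7.14%), in none of the alpha or gamma promoters and in 8.93% of all. The shared run itself holds the end of this core, a G and then GGC after 2 free bases. The search took exact letters only, so sites that differ in a letter were not counted. A promoter without a match may still hold a CTCF site. Matches are descriptions of letters, and binding was not measured here.

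The upstream stretch of PCDHB15, the one beta member with counts, is shown with the shared run in capitals. It covers chr5:141245145-141245348 (GRCh38.p14, + strand, 204 bases) and holds no annotated exon base.
PCDHB15: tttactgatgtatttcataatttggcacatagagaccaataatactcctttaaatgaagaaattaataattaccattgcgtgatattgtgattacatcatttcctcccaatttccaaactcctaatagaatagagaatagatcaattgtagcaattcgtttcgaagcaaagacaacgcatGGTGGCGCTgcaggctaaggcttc

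The same run stands in promoters of beta genes listed at 0, of which 4 are shown to set beside that of PCDHB15. Their windows lie on the + strand of GRCh38.p14 at chr5:141100394-141100426 (PCDHB3), chr5:141121724-141121756 (PCDHB4), chr5:141172567-141172599 (PCDHB7) and chr5:141208644-141208676 (PCDHB12), and capitals again mark the run.
PCDHB3: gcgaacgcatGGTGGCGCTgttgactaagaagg
PCDHB4: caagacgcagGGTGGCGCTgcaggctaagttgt
PCDHB7: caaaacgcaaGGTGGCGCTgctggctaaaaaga
PCDHB12: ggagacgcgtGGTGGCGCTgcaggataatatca

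The share of members listed at 0 was 96.3%, against 38.2% of all symbols and 14.8% of the 19272 symbols that RefSeq lists as protein-coding. All 16 alpha members, 15 of 16 beta members and 21 of 22 gamma members were at 0 in every library. All 5 C-type members were at 0, among them PCDHGC3, and so were the 5 cluster pseudogenes on the list. Genes around the clusters were not at 0: all 24 listed 5q31.3 neighbours found in the tables held counts. Of 12 non-clustered protocadherins, single genes that lie outside the clusters, 1 was at 0. The UGT1A genes, another family of variable first exons joined to shared ones, had the same kind of listing: 13 of 13 were at 0 beside an entry UGT1A with counts in 11 libraries.

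The annotation shows how the members lie to the cluster-wide entries. RefSeq places PCDHA@ at chr5:140786136-141012344, PCDHB@ at chr5:141051394-141249365 and PCDHG@ at chr5:141330685-141512979, with spans of 226209, 197972 and 182295 bases. The intervals of 37 of 54 members lie wholly inside their cluster-wide entry, and the 15 alpha members that end past it do so by 3 bases. PCDHGA1 (chr5:141330514-141512975) starts 171 bases before PCDHG@, and PCDHB1 starts 20 bases before PCDHB@. PCDHB15 (chr5:141245395-141249365) ends on the last base of PCDHB@ and has no exon base outside it. Apart from the cluster-wide entries, 53 of 54 members have exon bases in GENCODE v29 that no other gene on the same strand covers (beta, 16 of 16, median 3850 bases). HTSeq, which the submitters' processing notes name, sets aside by default a read that overlaps more than 1 gene. The setting and the annotation used are not given in the sources used here, and whether this produced the zeros was not tested.

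**Figure D1:**
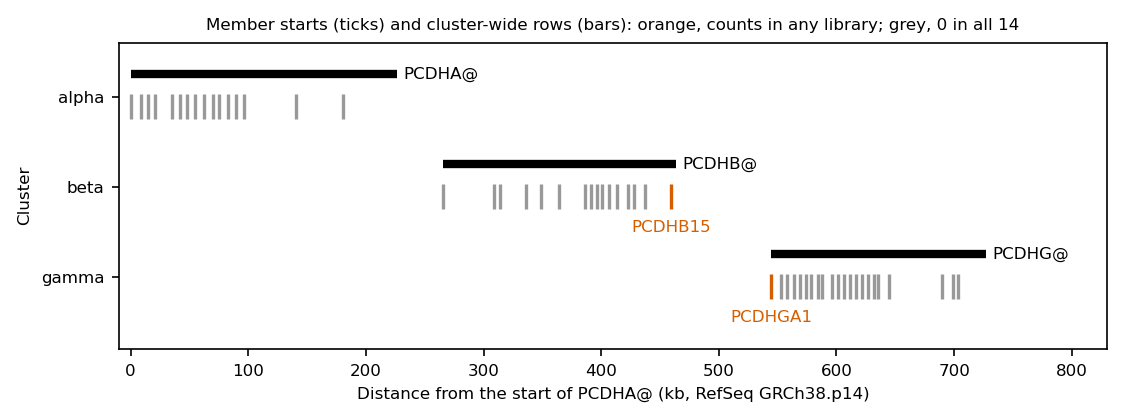
Position of each member's start (ticks) and of the 3 cluster-wide entries (black bars), in kb from the start of PCDHA@, by cluster. Orange marks PCDHB15 and PCDHGA1, the 2 members with counts, at the end of the beta cluster and the start of the gamma cluster. Grey marks the 52 members at 0 in all 14 libraries.

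The libraries held 22336161 to 58257456 reads assigned to genes, and each library of the second set was shallower than every one of the first. A count of 0 then allows up to 0.0515 to 0.0894 counts per 1000000 reads assigned to genes (CPM) in a library of the first set and up to 0.112 to 0.134 CPM in the second, taking 3 counts as the limit. Intervals and limits cover counting error only, since PCR copies are not independent molecules. The 10 fibroblast markers, all above 1 CPM in every group, summed to 19400 to 26000 CPM in WT, 4230 to 12800 in ICM 1-2, 2070 to 4240 in ICM 3-4 and 1800 to 4210 in siCTCF. The 5 epithelial markers, of which KRT18 alone passed 1 CPM and SFTPC was at 0, summed to 43.1 to 46.9 CPM in WT, 18.6 to 145 in ICM 1-2 and 176 to 194 in ICM 3-4. The 3 leukocyte markers, of which CD68 alone passed 1 CPM and CD3E was at 0, summed to 39.2 to 39.5 CPM in WT, 58.4 to 82.9 in ICM 1-2 and 95 to 104 in ICM 3-4. The 8 neuron markers, with ELAVL4 at 0, summed to 10.1 to 12.5 CPM in WT, 13.3 to 16.8 in ICM 3-4 and 7.96 and 56.1 in the ICM 1-2 libraries, and the 3 endothelial ones to at most 1.72 CPM. These sums thus move with ICM 3-4 against WT, the comparison in which PCDHB15 and the cluster-wide entries are lower. Under the label siSRRM2 the fibroblast sum was also below WT (9820 to 10100 CPM). The epithelial (89.7 to 90.8 CPM) and leukocyte (75.9 to 76.3 CPM) sums were also above WT. There PCDHB15 and PCDHG@ were not lower than in WT, and PCDHB@ was slightly lower (3.19 and 3.50 CPM against 3.72 and 3.70). The part of other cells in the values below was not tested. In bulk RNA, fewer cells with a transcript and less transcript per cell cannot be told apart.

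The targeted genes bear on the labels. HMGB2 stood at 3.18 and 3.52 CPM in siHMGB2 against 27.7 and 28.0 in WT. CTCF was 71.5 and 23.0 CPM in siCTCF against 94.9 and 91.9 CPM in ICM 3-4, so the knockdown libraries lay below both controls but differed from each other. SRRM2, at 238 and 112 CPM in ICM 1-2, stood at 76.1 and 76.4 CPM under the label siSRRM2 and lower still, at 59.0 and 17.0 CPM, under the label siBANF1. BANF1 reached 13.5 and 32.7 CPM in ICM 1-2, 17.0 and 36.7 CPM under the label siBANF1 and 34.2 and 33.3 CPM under the label siSRRM2, so it was not lower under either label. For these 4 libraries the names of the submitters' files swap both knockdowns. The labels are followed here, and no direction is drawn from these 2 knockdowns.

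PCDHB15, the last gene of the beta cluster, held 8 to 21 counts in each of the first 10 libraries. In WT it had 12 and 10 counts (0.358 and 0.274 CPM), and in siHMGB2 it had 15 and 18 counts (0.404 and 0.437 CPM). ICM 1-2 held 15 and 8 counts (0.307 and 0.147 CPM). The 95% Clopper-Pearson intervals of these libraries overlapped, and the WT interval of replicate 1 ran from 0.185 to 0.625 CPM. The libraries labelled siSRRM2 had 21 counts each (0.472 and 0.454 CPM), the highest of all, and those labelled siBANF1 had 12 and 9 counts (0.304 and 0.154 CPM). In the second set ICM 3 had 3 counts (0.125 CPM), and ICM 4 and both siCTCF libraries had 0. Pooled by set, PCDHB15 stood at 0.321 CPM (141 counts, 0.27 to 0.378) in the first 10 libraries. In the second set it stood at 0.0305 CPM (3 counts, 0.00629 to 0.0891). No library of the second set reached the lowest of the first, 0.147 CPM. The first set pools untreated, ICM-treated and knockdown libraries, while all of the second were ICM-treated. The pooled values thus mix set and group, and their intervals leave out the spread between libraries.

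PCDHGA1, the first variable gene of the gamma cluster, was lower still. It had 2 and 4 counts in WT, 2 and 1 in siHMGB2, 11 and 2 in ICM 1-2, 2 and 3 under the label siSRRM2, and 9 and 5 under the label siBANF1. ICM 1 and the first siBANF1 library were highest, at 0.225 and 0.228 CPM, and the other 8 lay between 0.0243 and 0.11 CPM. It had 0 counts in all 4 libraries of the second set. Pooled, this is 0.0932 CPM (41 counts) in the first 10 libraries against 0 counts in the second set, which allows up to 0.0305 CPM. These pooled values mix set and group as well. Reads of PCDHGA1 may belong to other gamma members through the shared constant exons, which its annotated transcript includes. The other 21 gamma members, which share these exons, were at 0. PCDHGA1 has 116 exon bases outside PCDHG@ and outside other genes on the same strand. PCDHB1, which is at 0 in every library, has 259 such bases outside PCDHB@, and PCDHB15, which has counts, has none. Where the reads of PCDHGA1 lie was not tested.

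**Figure D2:**
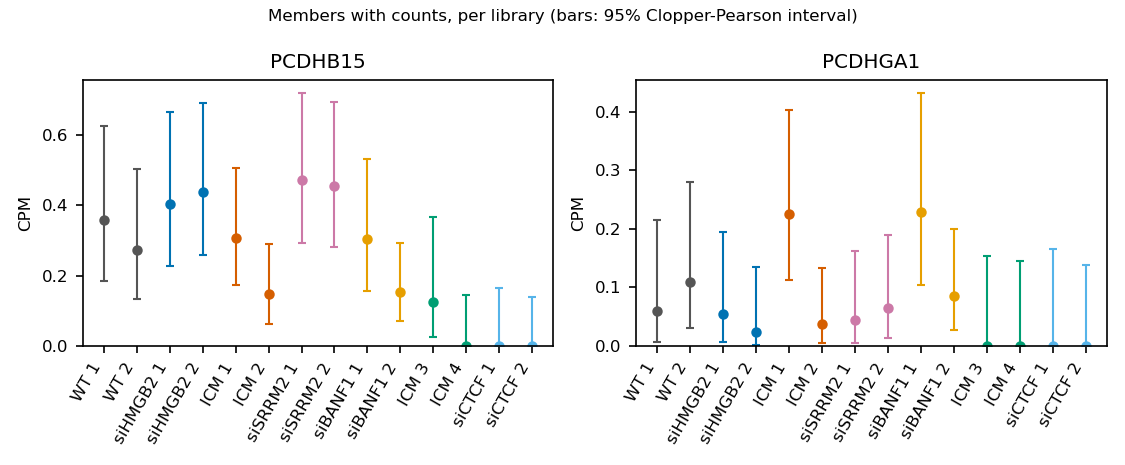
CPM of PCDHB15 (left) and PCDHGA1 (right) in each of the 14 libraries, coloured by group, with 95% Clopper-Pearson intervals. PCDHB15 lies between 0.147 and 0.472 CPM in the first 10 libraries and between 0 and 0.125 CPM in ICM 3-4 and siCTCF. PCDHGA1 is highest in ICM 1 and siBANF1 1 and at 0 in the 4 libraries on the right.

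Only PCDHB15 had enough counts to be tested, so 1 of 54 members entered the fit over 19126 genes. It was not called in any of the 6 comparisons (edgeR's quasi-likelihood test, Benjamini-Hochberg adjusted p under 0.05). The shares of all tested genes called were 13.5% in ICM 1-2 against WT, 30.3% in ICM 3-4 against WT, 0.0% in siHMGB2 against WT, 0.178% for the libraries labelled siSRRM2 and 0.0% for those labelled siBANF1, each against ICM 1-2, and 0.0% in siCTCF against ICM 3-4. DESeq2 likewise called 0 members. It gave PCDHB15 no adjusted p for the libraries labelled siSRRM2 and siBANF1, so no call was possible there. At an unadjusted p under 0.05 PCDHB15 was past the threshold in 1 comparison, ICM 3-4 against WT, among 8417 of all 19126 genes. The background moved with the libraries in the fit: with the 4 compared libraries alone 0 of 16617 genes were called in ICM 1-2 against WT and 1668 of 15338 in siHMGB2 against WT, and without ICM 1 and siBANF1 1 these were 8764 and 266. Over all genes, 908, 591 and 125 passed an unadjusted p of 0.05 in siHMGB2, labelled siBANF1 and siCTCF, where edgeR called 0, and DESeq2 called 74, 24 and 0. With simulated 4-fold changes in 200 of the genes, the same fit recovered 18.0% to 33.0% of them, depending on the comparison. The false share of the simulated calls ran from 0.0% (ICM 3-4 against WT) to 10.6% (labelled siBANF1), with 7.55% in siCTCF. These shares cover genes of all levels and do not give the recovery for a gene as low as PCDHB15.

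For ICM against WT, PCDHB15 did not pass the test in either set of ICM libraries. In ICM 1-2 the log2 fold change was -0.58 (SE 0.89, edgeR adjusted p = 0.685). In ICM 3-4 it was -2.51 (SE 1.08, edgeR adjusted p = 0.102), with 22 counts in WT and 3 in ICM 3-4. The ratio of WT to ICM 3-4 from these counts was 5.16 (95% counting interval 1.55 to 26.9). Without ICM replicate 3, which holds all 3 counts, the fitted value was -6.77 and the adjusted p 0.0468, so 1 member was called, but the remaining ICM library is at 0 and that fold is not interpretable. The difference between the 2 sets of ICM libraries itself was 1.93 (ICM 1-2 minus ICM 3-4, SE 1.08, edgeR adjusted p = 0.225).

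For the knockdowns, PCDHB15 did not pass the test. Its log2 fold change was 0.47 (SE 0.88, edgeR adjusted p = 1.0) in siHMGB2 against WT. The libraries labelled siSRRM2 gave 0.99 (SE 0.87, edgeR adjusted p = 0.704) and those labelled siBANF1 gave 0.03 (SE 0.90, edgeR adjusted p = 1.0) against ICM 1-2. In siCTCF against ICM 3-4, 0 and 3 counts per group both lie at or under the limit of 3 counts, so no fold is given, and these counts cannot show whether PCDHB15 differed between them. PCDHGA1 had 0 counts in all 4 libraries of that comparison.

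PCDHB@ and PCDHG@ held more reads than either member with counts. Under the HTSeq default described above, reads on exons of the members would be left out of the cluster-wide entries. Where the reads of these entries lie was not tested, so their values are not taken as a measure of member transcripts. The signal of PCDHB@, which spans the beta genes, their pseudogenes and the DNA between them, was 3.72 and 3.70 CPM in WT, 4.04 and 4.06 CPM in siHMGB2, and 12.2 and 2.69 CPM in ICM 1-2. Libraries labelled siSRRM2 gave 3.19 and 3.50 CPM, and those labelled siBANF1 gave 6.75 and 2.45 CPM. The second set was lower, with 1.80 and 1.38 CPM in ICM 3-4 and 1.84 and 0.635 CPM in siCTCF. ICM 1 was far above ICM 2, and the 2 siCTCF libraries enclosed both ICM 3-4 libraries. The siCTCF library with 23.0 CPM of CTCF had 0.635 CPM of PCDHB@, the lowest of all libraries, and that with 71.5 CPM had 1.84. In the same order PCDHG@ was 2.99 and 2.37 CPM. The ICM libraries differed as well, with 4.18 CPM of PCDHG@ in ICM 4 and 2.34 in ICM 3. Set beside ICM 4, siCTCF 2 was lower for both entries. Beside ICM 3, siCTCF 1 was about level for both. The labels do not give this pairing. Each value rests on 1 library, and a link to the level of CTCF was not tested. The log2 fold change of PCDHB@ in ICM 3-4 against WT was -1.46 (SE 0.76, edgeR adjusted p = 0.164), and the same fit gave -0.36 (SE 0.78, edgeR adjusted p = 1.0) in siCTCF against ICM 3-4.

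PCDHG@, which spans the gamma variable and constant exons, was the most abundant of the 3 entries. It stood at 10.4 and 12.9 CPM in WT, 10.5 and 12.8 CPM in siHMGB2 and 36.4 and 8.42 CPM in ICM 1-2. Libraries labelled siSRRM2 gave 13.4 and 13.0 CPM, and those labelled siBANF1 gave 40.3 and 9.63 CPM. In the second set it was 2.34 and 4.18 CPM in ICM 3-4 and 2.37 and 2.99 CPM in siCTCF. The groups of ICM 3-4 and siCTCF overlapped, and every library of the first set lay above every library of the second. The log2 fold change was -2.09 (SE 0.75, edgeR adjusted p = 0.0567) in ICM 3-4 against WT and -0.28 (SE 0.74, edgeR adjusted p = 1.0) in siCTCF against ICM 3-4. DESeq2 put the first of these at an adjusted p of 0.0198.

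PCDHA@ was near the limit of detection, with 4 and 8 counts in WT, 19 and 16 in ICM 1-2, 0 in ICM 3-4, and 0 and 3 in siCTCF. With the limit of 3 counts in place of 0 over ICM 3-4, the ratio of WT to ICM 3-4 was 2.82. This ratio leaves out the counting error of the 12 WT counts. In the fit of all 14 libraries PCDHA@ was the one cluster-wide entry called in any of the 6 comparisons (ICM 3-4 against WT, edgeR adjusted p = 0.0386). The call was lost when any 1 of the 4 compared libraries was left out, with adjusted p from 0.0784 (without WT replicate 1) through 0.124 (without ICM replicate 3) and 0.14 (without WT replicate 2) to 0.144 (without ICM replicate 4).

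**Figure D3:**
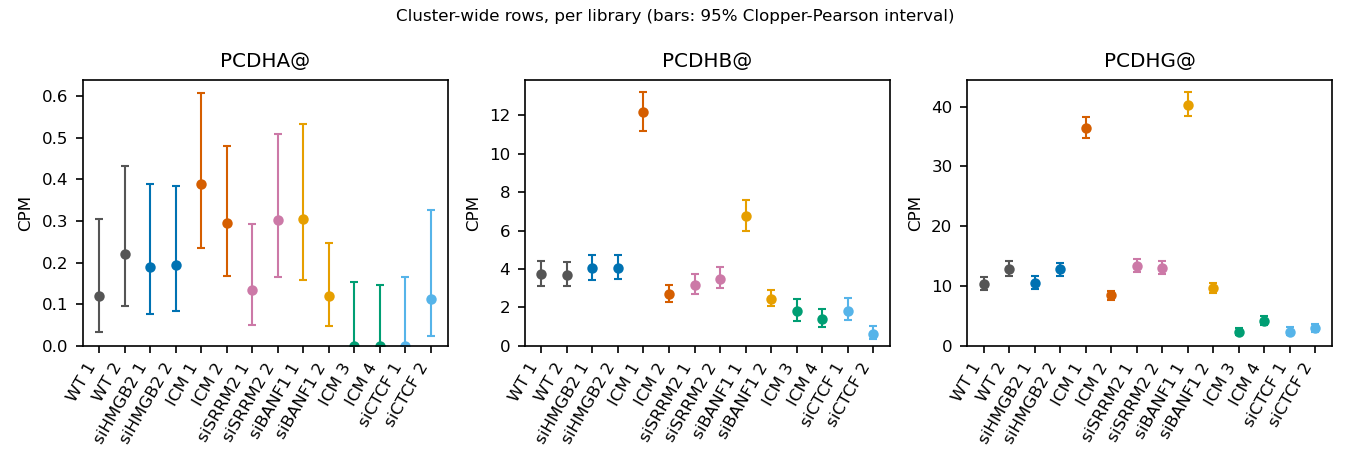
CPM of PCDHA@, PCDHB@ and PCDHG@ (left to right) in each library, coloured by group, with 95% Clopper-Pearson intervals and separate vertical scales. PCDHB@ reaches 12.2 CPM in ICM 1 and PCDHG@ 40.3 CPM in siBANF1 1. All 3 entries are low in the 4 libraries of the second set.

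In the first-set ICM comparisons 1 library decided the sign of the cluster-wide entries. PCDHB@ in ICM 1-2 against WT was 0.91 (SE 0.73, edgeR adjusted p = 0.427) and became -0.67 without ICM replicate 1. PCDHG@ was 0.86 (SE 0.71, edgeR adjusted p = 0.441) and likewise became -0.67 without it. ICM 1 and siBANF1 1 also had the largest shares of reads outside annotated features, up to 18.4%, and the other 12 libraries had 2.69% to 8.87%. Set against those reads, PCDHB@ came to 48.2 counts per 1000000 such reads in ICM 1, 21.3 in siBANF1 1 and 38.0 and 34.3 in WT. PCDHG@ came to 144 in ICM 1, 127 in siBANF1 1 and 106 and 119 in WT. Over all libraries these ratios ran from 14 to 59.5 for PCDHB@ and from 66.0 to 148 for PCDHG@. The part of such reads in the values of the cluster-wide entries was not tested.

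**Figure D4:**
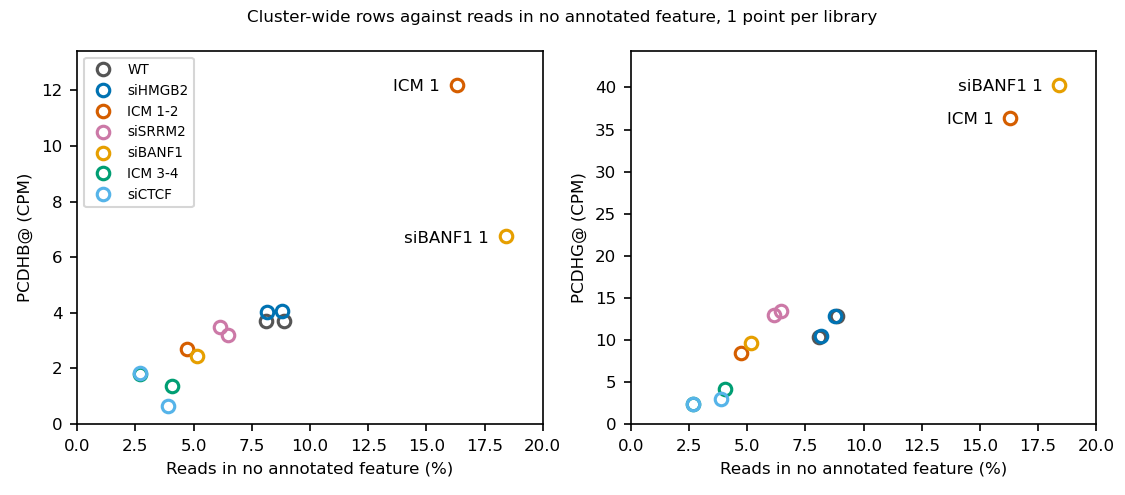
PCDHB@ (left) and PCDHG@ (right) in CPM against the percentage of reads in no annotated feature, 1 ring per library, coloured by group. ICM 1 and siBANF1 1 stand at the upper right of both panels, and the other 12 libraries lie at or below 8.87% on the horizontal axis. ICM 3-4 and siCTCF lie at the lower left.

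**Figure D5:**
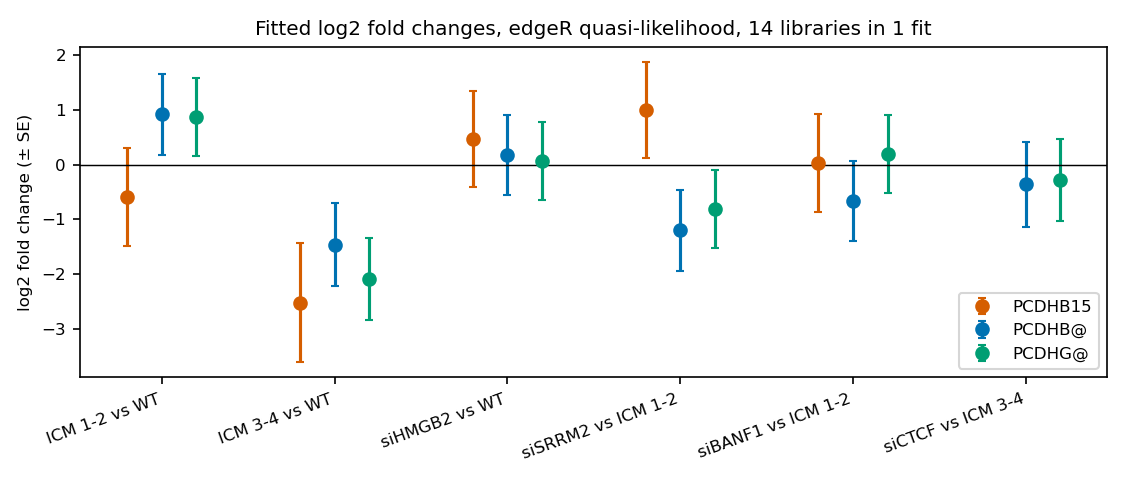
Fitted log2 fold change with its standard error for PCDHB15, PCDHB@ and PCDHG@ in the 6 comparisons; the value of PCDHB15 in siCTCF is left out because both groups are at or under the limit of 3 counts. None of the plotted values passed an adjusted p of 0.05. The values of all 3 lie below 0 in ICM 3-4 against WT.

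Of 27 listed regulators of protocadherin promoters, 26 were tested. Of all 19126 tested genes, 13.5% were called in ICM 1-2 against WT and 30.3% in ICM 3-4 against WT. The counts of each list below stand beside these shares. The calls on this list and on those that follow depend on the libraries in the fit. In ICM 1-2 against WT, 10 of 81 tested genes of all lists were called, and 0 with the 4 compared libraries alone, without WT replicate 1 or without WT replicate 2. Without ICM 1 and siBANF1 1 there were 41, of which 9 were among those 10. In ICM 3-4 against WT, 35 were called, and 7 without WT replicate 1, 7 without WT replicate 2, 11 without ICM replicate 3 and 12 without ICM replicate 4. In ICM 1-2 against WT, 1 rose and 3 fell (median log2 fold change 0.13, against 0.10 over all genes). REST, a repressor of neuronal genes, rose, and the methyltransferase DNMT1, the cohesin subunit SMC1A and WIZ fell. In ICM 3-4 against WT, 3 rose and 6 fell (median -0.43, against -0.02 over all genes). The cohesin loader MAU2 and the cohesin release factor WAPL were among those that rose, while the methyltransferases DNMT3A and DNMT3B, SETDB1, TET1, SMC1A and REST fell. REST lost its call in 8 of 13 alternatives for ICM 1-2 and in 8 of 11 for ICM 3-4. These comparisons share the WT libraries. For CTCF the log2 fold change in siCTCF against ICM 3-4 was -0.96 (SE 0.52, edgeR adjusted p = 1.0). With a block that pairs the libraries by the numbers in their file names it was -1.17 (edgeR adjusted p = 4.14e-17), a pairing the labels do not give.

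Of the non-clustered protocadherins, 8 were tested. PCDH9 rose in ICM 1-2 against WT (log2 fold change 2.36, SE 0.47, edgeR adjusted p = 0.011), the 1 called gene of the list there (median -0.18). That call was lost in 4 of 13 alternatives: with the 4 compared libraries alone, and without WT replicate 1, WT replicate 2 or ICM replicate 2 (highest adjusted p = 0.11). In ICM 3-4 against WT, 2 rose and 2 fell (median 0.69). PCDH9 was 22.1 and 32.4 CPM there and PCDH18 was 41.4 and 21.9 CPM, against 3.72 and 5.13 CPM and 510 and 587 CPM in WT. PCDH18 fell by 4.34 on the log2 scale (SE 0.77, edgeR adjusted p = 0.00349), and was called in all 11 alternatives run. PCDH9 lost its call there without WT replicate 1 (adjusted p = 0.0587). PCDH7 fell and PCDH1 rose, but PCDH7 lost its call in 7 of 11 alternatives and PCDH1 in 3, without WT replicate 2, ICM replicate 3 or ICM replicate 4.

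Genes next to the clusters, on 5q31.3, were counted in these libraries. Of 22 tested, 0 rose and 1 fell in ICM 1-2 against WT (DND1, median -0.13). In ICM 3-4 against WT, 7 rose and 2 fell (median 0.46), and DND1 fell again. Its call was lost in 6 of 12 alternatives for ICM 1-2 and in 5 of 10 for ICM 3-4, among them each single WT or ICM library left out. TAF7, a neighbour whose gene lies between the beta and gamma clusters, was not called in ICM 3-4 against WT (log2 fold change 0.63, SE 0.43, edgeR adjusted p = 0.279). It stood at 108 CPM ± 3.03 (SD, n = 2) in WT, 199 CPM ± 10.4 (SD, n = 2) in ICM 3-4 and 67.5 and 183 CPM in the ICM 1-2 libraries.

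Proteins that process or bind protocadherins, among them ADAM10 and the gamma-secretase subunits that cut them and the kinase PTK2B that they inhibit, were all 15 tested. In ICM 1-2 against WT, 2 rose (PTK2B and RET) and 1 fell (MARCKS), with a median of 0.34. In ICM 3-4 against WT, 4 rose and 5 fell (median -0.20). PTK2B and RET rose again, with AXIN1 and PSENEN, and ADAM10, APH1B, FYN, MARCKS and NLGN1 fell. Of 10 tested classical cadherins and catenins, 1 rose in ICM 1-2 (CTNND1, median -0.29), and 4 fell in ICM 3-4 (CDH2, CDH6, CDH11 and JUP, median -0.38).

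In the other 4 comparisons none of the 81 tested genes on these lists was called by edgeR's quasi-likelihood test. Unadjusted p-values under 0.05 were found for 3 in siHMGB2, 15 under the label siSRRM2, 3 under the label siBANF1 and 0 in siCTCF, against 908, 2168, 591 and 125 of all 19126 genes. DESeq2 called 0, 2 (PCDH7 and TET3), 0 and 0. The list of cluster pseudogenes had no tested gene.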

How the data were processed

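RNA-seq counts per gene symbol were taken as the authors deposited them, 1 table per library, from the column of whole numbers that sum to 22336161 to 58257456 after 5 lines for reads given to no gene were set aside. The submitters' processing notes name STAR 2.7.3a, HTSeq 0.12.4, DESeq2 1.36.0 and hg38; roles, annotation release and strand setting are not given in the sources used here. Reads in no feature were 2.69% to 18.4%, ambiguous reads 1.58% to 9.53% and not uniquely placed reads 7.15% to 20.7%.

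CPM is the count over the library's gene total. All 14 libraries were fitted together with edgeR 4.0.16 (TMM, default expression filter, 7 group means, 7 residual degrees of freedom), and p-values were adjusted over 19126 genes. Named genes were the members with the highest mean CPM (here the 2 with counts), the C-type members, called members and the targeted genes, plus list genes called; cluster-wide entries, PCDH18, PCDH9 and TAF7, and the names given for called list genes, were added after values were seen. Members, the 6 gene lists and the 5 marker lists were chosen with earlier results of these data known. The fit was tested on simulated data. Alternatives were scaling by relative log expression or total counts, 2 other filters, DESeq2 1.42.0, the 4 compared libraries alone, a replicate block, all 4 ICM libraries together, and leaving out each library, or, chosen after seeing the data, the pair ICM 1 and siBANF1 1. Sequences and intervals come from RefSeq (GRCh38.p14), exon overlaps from GENCODE v29. A gene of the regulator list is not reported here by name.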

Additional observations from a re-analysis of the deposited data

Results flagged for a closer look

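The levels of PCDHA@ and PCDHG@ differed between ICM 1-2 and ICM 3-4 in a test of these 2 sets against each other. The second set has no untreated libraries, so this is a difference in level and not in the response to ICM. For PCDHG@ the log2 difference of ICM 1-2 minus ICM 3-4 was 2.95 (SE 0.77, edgeR adjusted p = 0.0246), with mean levels of 22.4 and 3.26 CPM. The value was 1.42 without ICM 1 (36.4 CPM, against 8.42 in ICM 2; adjusted p = 0.215) and 3.65 without ICM 2 (0.00354). The call was also lost without ICM 3 (0.158) and ICM 4 (0.0892), and held without ICM 1 and siBANF1 1 together (1.42, 0.00729). For PCDHA@ the fitted difference was 6.72 (edgeR adjusted p = 0.0264), but ICM 3-4 is at 0, so this value is no bound. With the limit of 3 counts for ICM 3-4, PCDHA@ was 5.58-fold higher in ICM 1-2, leaving out the counting error of ICM 1-2. Its call was lost without ICM 1 (0.0881), ICM 3 (0.119) or ICM 4 (0.117). In the same contrast 3738 of 19126 genes were called. PCDHB@ had 2.37 (SE 0.78, edgeR adjusted p = 0.0544), and 0.79 without ICM 1. Set and library cannot be told apart here.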

How the results depend on the processing

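The count of members called was 0 in each comparison and stayed 0 under every alternative run except 1. No member was tested, so that a 0 says nothing, with the minimum of 1 CPM in any comparison. The same holds with the 4 compared libraries alone in ICM 3-4 against WT and in siCTCF, with or without the block. Nor does the 0 of DESeq2 say anything for the libraries labelled siSRRM2 and siBANF1, where PCDHB15 had no adjusted p. Leaving out single libraries gave 0 to 1 in ICM 3-4 against WT (1 without ICM replicate 3). No replicate block was possible for ICM 3-4 against WT, which share no numbers. With the replicate block on the 4 compared libraries, 0 members were called in the 4 other comparisons where one was tested, while all genes called were 1183 (ICM 1-2), 2443 (siHMGB2), 34 (labelled siSRRM2), 1 (labelled siBANF1) and, paired by file-name numbers, 4 (siCTCF), where CTCF had -1.17 (adjusted p = 4.14e-17). The numbers were not taken as pairs, since the labels give no shared source. Correlations of the deviations were -0.2, 0.21, 0.06, 0.86 and 0.82 in that order. They were high for the libraries labelled siBANF1 and for siCTCF. In these 2 comparisons the fit without pairs may miss differences, and its lack of calls does not show that there are none. DESeq2 called 4010, 7285, 74, 727, 24 and 0 genes in the 6 comparisons in the order of the report, against 2582, 5797, 0, 34, 0 and 0. Signs turned as follows. PCDHB15 labelled siBANF1 was 0.0 with total counts and with the 4 libraries alone. With all 4 ICM libraries against WT, PCDHA@ was -2.49, PCDHB@ -0.27 and PCDHG@ -0.61. Without ICM 1 and siBANF1 1, PCDHB@ was -0.67 and PCDHG@ -0.67 in ICM 1-2, and 0.39 and 0.73 labelled siSRRM2. Leaving out 1 library gave PCDHB15 labelled siBANF1 -0.6 to 0.72, PCDHA@ in siHMGB2 -0.14 to 0.71, and PCDHB@ -0.67 to 1.62 (ICM 1-2), -1.9 to 0.38 (labelled siSRRM2), -1.69 to 0.9 (labelled siBANF1) and -1.39 to 0.25 (siCTCF). For PCDHG@ it gave -0.67 to 1.56, -1.5 to 0.72, -1.31 to 1.71 and -0.58 to 0.12 in the same 4, and -0.11 to 0.21 in siHMGB2. In ICM 3-4 against WT, PCDHB@ passed with no filter (adjusted p = 0.0351), with the 4 libraries alone (0.0151) and without ICM 1 and siBANF1 1 (0.0156), and PCDHG@ with those 3 (2.47e-05, 0.00478, 0.000125) and DESeq2 (0.0198). The cause was not tested. The second set holds 3 counts of PCDHB15 and 0 of PCDHGA1.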
